A study of Mus musculus with 6 samples.

Results

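The 10 genes described here encode enzymes that remove superoxide and peroxides: Cat (catalase), the superoxide dismutases Sod1, Sod2 and Sod3, the glutathione peroxidases Gpx1 and Gpx4, and the peroxiredoxins Prdx1, Prdx3, Prdx5 and Prdx6. They were chosen by symbol, by a rule that uses no measured value, though with earlier results of these data known, as the rows whose Ensembl identifier carries one of these names in the mouse annotation GENCODE M21 on GRCm38. All 10 were found among the 55536 genes of the files. The libraries were made from total RNA of livers of male C57BL/6 mice, an inbred strain, whose age was 6 weeks at the start. The PS-MP group (3 libraries) received polystyrene microplastics, particles of a common packaging plastic, as oral doses labelled 0.4 mg/day, given on 2 occasions weekly over 8 weeks. The water group (3 libraries) received water on the same schedule. Whether each library is from its own mouse is not spelled out by the labels, and the p-values therefore reflect the spread among libraries alone, which may be technical.

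Superoxide is a by-product of the respiratory chain and of several oxidases, and dismutases turn it into hydrogen peroxide and oxygen. Catalase, glutathione peroxidases and peroxiredoxins then break down hydrogen peroxide, in peroxisomes, cytosol and mitochondria, with glutathione or thioredoxin as electron donors for all but catalase. Liver is known for very high catalase and Gpx1 activity, and its peroxisomes produce hydrogen peroxide during fatty acid and urate oxidation.

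Gpx1 and Gpx4 differ from the other members in their active site, which holds selenocysteine. Selenocysteine is encoded by TGA, elsewhere a stop codon, so translation of both mRNAs depends on the selenium machinery that is described with them below. The 2 stretches are shown because they tie Gpx1 and Gpx4 to the selenoprotein genes. They were read from GENCODE M21 transcripts on the plus strand, with 30 bases on each side, and the capitals mark the selenocysteine codon, which is codon 47 of Gpx1 (chr9:108339451-108339453) and codon 73 of Gpx4 (chr10:80054737-80054739).
Gpx1: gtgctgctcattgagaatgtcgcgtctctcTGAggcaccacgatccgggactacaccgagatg
Gpx4: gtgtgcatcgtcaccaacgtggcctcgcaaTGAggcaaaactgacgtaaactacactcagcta

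Recovered totals were 13082210 to 15938284 reads in PS-MP libraries and 14520402 to 16948343 reads in water libraries. Hepatocyte markers were abundant throughout, with Alb (albumin) at 5.77% to 7.54% of reads in PS-MP and 7.25% to 7.95% in water. Of the 8 hepatocyte markers, 7 had negative fold changes and 0 passed the limma-trend test (0 with an unadjusted p under 0.05), and their summed level was 36506 to 43754 FPKM in PS-MP against 44210 to 47184 FPKM in water. The 8 forebrain neuron markers summed to 9.05, 6.15 and 43.9 FPKM in PS-MP replicates 1, 2 and 3, against 3.97 to 4.65 FPKM in water, so PS-MP replicate 3 stood apart. Brown fat Ucp1 was at 0, 0 and 2.79 FPKM in PS-MP replicates 1, 2 and 3, against 5.59, 0 and 0.63 FPKM in water replicates 1, 2 and 3. The part of these transcripts in the results below was not tested, and each member's estimate is also given without each library. In whole liver, fewer cells of a type and less RNA per cell cannot be told apart.

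None of the 10 scavenger mRNAs passed the test between PS-MP and water livers, and every estimated difference was small. With limma-trend on log2(FPKM + 0.5), 0 of 10 had an adjusted p under 0.05, 0 had an unadjusted p under 0.05, and limma-voom on recovered reads also called 0. Over all 13299 genes tested, 0.489% were called (0.241% higher and 0.248% lower in PS-MP) and 13.1% had an unadjusted p under 0.05. The estimates ran from a log2 fold change of -0.19 for Sod3 to 0.13 for Prdx5, with 4 of 10 positive and a median of -0.03, beside 0.01 over all tested genes. All 10 members passed the rule on low counts. The 95% intervals of all 10 together spanned 0.738-fold to 1.26-fold, so a change of 2 times in either direction lay outside every one of them. The median width of the interval on each side was 0.17 log2 for the members and 0.26 log2 for all tested genes.

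**Figure D1:**
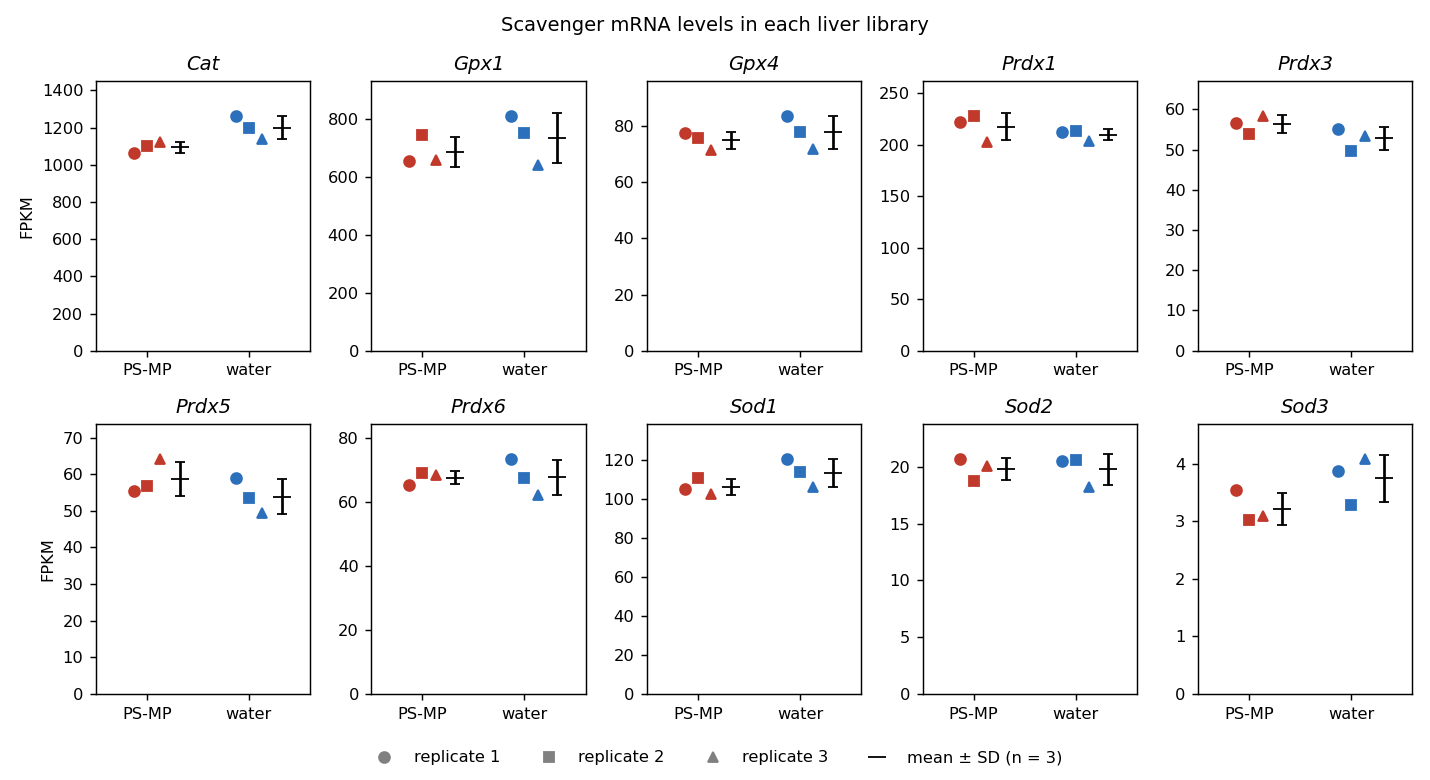
Scavenger mRNA levels in FPKM (vertical axis, from 0) for the 3 PS-MP and 3 water libraries of each gene, with 1 point per library and the mean ± SD beside each group. The groups of Cat do not overlap (1063 to 1122 FPKM in PS-MP, 1138 to 1262 in water), and those of the other 9 genes do.

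The levels spread over a wide range, with Cat highest and Sod3 lowest in both groups. FPKM is a read number scaled by the length of a gene's merged exons and by the library total. Averaged over the 6 libraries, Cat was at 1148 FPKM, rank 51 of 13299 tested genes, and Gpx1 at 709 FPKM, rank 73. Prdx1 followed at 213.7 FPKM and Sod1 at 109.7 FPKM. Gpx4, Prdx6, Prdx5 and Prdx3 lay close together, at 76.3, 67.6, 56.3 and 54.5 FPKM, and each of these neighbours overlapped the next in its range over the libraries. Sod2 was at 19.8 FPKM and Sod3 at 3.48 FPKM. From Cat to Gpx4, and again from Prdx3 to Sod3, no neighbours in the order overlapped over the 6 libraries.

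The place of Sod1 depended on the length used. Its merged exons cover 3970 bases, whereas the principal coding transcript has 641 bases. Per kilobase of the longest principal transcript, a scale chosen after seeing the data, Sod1 was at 657 ± 25.2 in PS-MP and 702 ± 43.8 in water (SD, n = 3 each), above Prdx1 at 289 ± 17.2 and 278.3 ± 6.77. By the mean over the 6 libraries the other members kept their order. Prdx6 and Gpx4 were nearly level on this scale, and their order differed between the groups, at 136 and 135 in PS-MP, and at 136 and 140 in water. Sod2 has the longest merged exons, 10008 bases, and remained second lowest on both scales. The length cancels in the ratio of PS-MP to water FPKM within a gene. The limma-trend fit also uses the level itself, through the added 0.5 and the expected variance, so length enters there. This matters most for low genes: Sod3 had a log2 fold change of -0.21 with 0.1 added and -0.17 with 1 added.

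**Figure D2:**
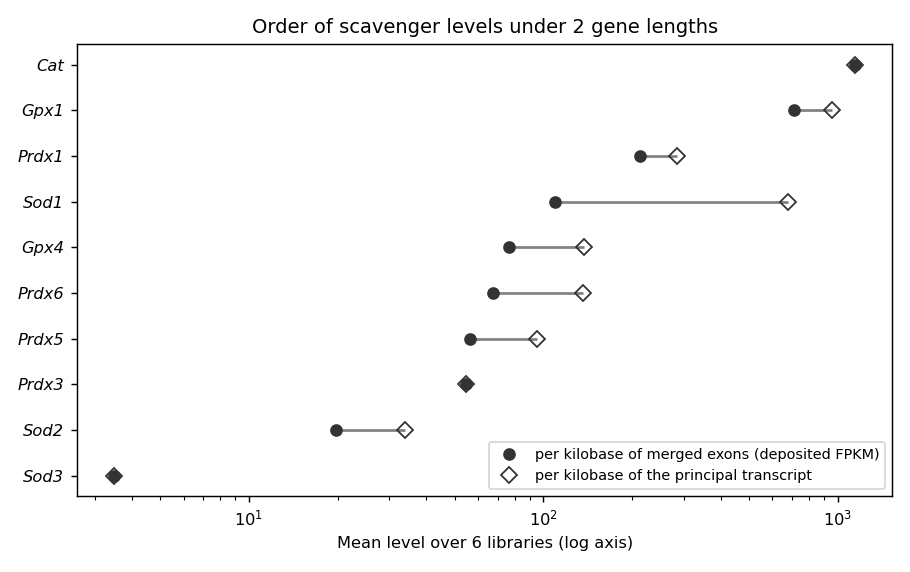
Mean level of each scavenger over the 6 libraries on a log axis, per kilobase of merged exons (filled circles, FPKM) and per kilobase of the longest principal transcript (open diamonds). Sod1 moves from rank 4 to rank 3, and Cat, Prdx3 and Sod3 have the same length on both scales.

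Among the enzymes that act on superoxide, Sod1, the copper-zinc dismutase of the cytosol (chromosome 16, 90220754 to 90226329), had 105, 111 and 103 FPKM in PS-MP replicates 1, 2 and 3, against 120, 114 and 106 FPKM in water replicates 1, 2 and 3. The groups overlapped only by PS-MP replicate 2, which lay above water replicate 3. The log2 fold change was -0.09 (standard error 0.07; limma adjusted p = 0.610), with a 95% interval of 0.836-fold to 1.05-fold.

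Sod2, the manganese dismutase of mitochondria (chromosome 17, 13006846 to 13040063), had 20.7, 18.8 and 20.1 FPKM in PS-MP and 20.5, 20.6 and 18.2 FPKM in water. Its groups covered nearly the same range, with means of 19.8 ± 0.974 in PS-MP and 19.8 ± 1.35 in water (SD, n = 3 each). The interval of its fold was 0.889 to 1.13, and the sign of its estimate turned when the scaling or 1 library changed.

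Sod3, the secreted dismutase bound to the extracellular matrix (chromosome 5, 52363791 to 52371418), had 3.54, 3.02 and 3.08 FPKM in PS-MP and 3.88, 3.28 and 4.07 FPKM in water. It had the lowest depth of the members, 172 to 221 reads per library, and counting error alone gives a spread of 7.15% of its level beside an observed 10.1%. PS-MP replicate 1 lay above water replicate 2, and the other PS-MP values lay below all water values. Its log2 fold change of -0.19 (standard error 0.11) was the largest in size of the members and had the smallest p (0.114; limma adjusted p = 0.504). Without water replicate 2 the limma fit gave -0.27 with an adjusted p of 0.442, the 1 case among 150 refitted values of the members with an unadjusted p under 0.05.

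The genes with the pattern most like that of Sod3 were Ehd3, which encodes a protein of endocytic recycling, Mtus1, a microtubule-associated protein, and Eif1a, a translation initiation factor. Likeness was measured as the root mean square difference of log2(FPKM + 0.5), centred for each gene, over the 6 libraries, among 2742 coding genes with a mean of at least 10 FPKM. The differences were 0.027 for Ehd3, 0.033 for Mtus1 and 0.047 for Eif1a, beside a median of 0.17. None of these 3 passed the limma test, with adjusted p of 0.415, 0.476 and 0.592.

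Cat was the 1 member whose groups did not overlap. Catalase, the haem enzyme of peroxisomes (chromosome 2, 103453849 to 103485160), had 1063, 1101 and 1122 FPKM in PS-MP replicates 1, 2 and 3, against 1262, 1201 and 1138 FPKM in water replicates 1, 2 and 3. The highest PS-MP value and the lowest water value lay close together. The means were 1095 ± 29.9 in PS-MP and 1200.0 ± 62.0 in water (SD, n = 3 each), a 0.913-fold difference with a 95% interval of 0.796 to 1.05 and a limma adjusted p of 0.562. Groups did not overlap for 19.2% of all tested genes (8.12% lower and 11.1% higher in PS-MP), so 1 of 10 members is near the background. The summed hepatocyte markers given above were also lower in all 3 PS-MP libraries, and their part in the Cat values was not tested. Most of that sum is Alb, whose own groups overlapped (24624 to 32191 FPKM in PS-MP, 30947 to 33953 in water). Groups did not overlap for 2 of the 8 hepatocyte markers. Leaving out each library in turn gave Cat log2 fold changes of -0.17 to -0.09.

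Gpx1, the glutathione peroxidase of cytosol and mitochondria (chromosome 9, 108338903 to 108340343), had 656, 743 and 656 FPKM in PS-MP and 809, 751 and 641 FPKM in water. Water replicate 3 was the lowest of all 6 libraries and water replicate 1 the highest, so the PS-MP values fell inside the water range. Its log2 fold change was -0.09 (standard error 0.11; limma adjusted p = 0.760), with an interval of 0.786-fold to 1.12-fold. Its spread within groups, 9.87% of its level, was 1 of the 2 widest among the members although counting error was 0.803%, and the estimate ran from -0.19 without water replicate 3 to -0.02 without water replicate 1.

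Gpx4, which reduces lipid hydroperoxides in membranes and restrains ferroptosis (chromosome 10, 80047166 to 80056439), had 77.5, 75.7 and 71.5 FPKM in PS-MP and 83.5, 78.0 and 71.8 FPKM in water. Water replicates 1 and 2 lay above every PS-MP value, and water replicate 3 lay inside the PS-MP range. The fold interval was 0.856 to 1.09 (limma adjusted p = 0.813). The ratio of Gpx1 to Cat was 0.617, 0.675 and 0.585 in PS-MP and 0.641, 0.625 and 0.563 in water, so these abundant peroxide-removing mRNAs kept overlapping ratios.

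Among the peroxiredoxins, which use a reactive cysteine in place of a metal or selenium, Prdx1 of the cytosol (chromosome 4, 116685544 to 116700822) had 222.0, 228 and 203 FPKM in PS-MP and 212, 213 and 204 FPKM in water. PS-MP replicate 3 was the lowest library and PS-MP replicates 1 and 2 the highest, so the water values lay inside the PS-MP range. The log2 fold change was 0.05 (standard error 0.07; limma adjusted p = 0.804), with an interval of 0.925-fold to 1.16-fold.

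Prdx3, its mitochondrial relative (chromosome 19, 60864051 to 60874556), had 56.6, 53.9 and 58.3 FPKM in PS-MP and 55.2, 49.7 and 53.4 FPKM in water. The groups overlapped through water replicate 1, and the log2 fold change was 0.09 (standard error 0.07; limma adjusted p = 0.600). Prdx3 rests on 1095 to 1285 reads per library.

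Prdx5, found in mitochondria, peroxisomes and cytosol (chromosome 19, 6906697 to 6910106), had 55.5, 56.8 and 64.1 FPKM in PS-MP and 59.0, 53.4 and 49.3 FPKM in water. It had the highest positive estimate of the members, a log2 fold change of 0.13 (standard error 0.09; limma adjusted p = 0.588) with an interval of 0.947-fold to 1.26-fold. PS-MP replicate 3, which carried the most neuron transcripts, was highest, and the estimate was 0.06 without it and also 0.06 without water replicate 3. Prdx5 shares 409 exon bases, 19.1% of its exons, with Trmt112 on the opposite strand, and reads there cannot be assigned with certainty because the sources used here do not give the strand setting.

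Prdx6, which uses glutathione and also acts as a phospholipase (chromosome 1, 161240112 to 161251219), had 65.2, 69.1 and 68.3 FPKM in PS-MP and 73.3, 67.4 and 62.3 FPKM in water. The means were 67.5 ± 2.01 in PS-MP and 67.6 ± 5.50 in water (SD, n = 3 each), and the fold interval was 0.887 to 1.13. The PS-MP values lay inside the water range.

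**Figure D3:**
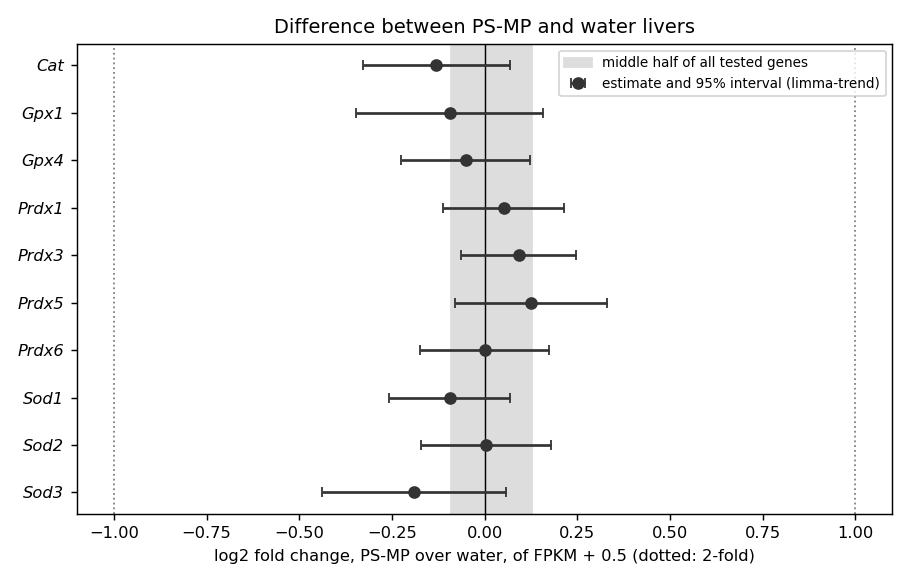
Log2 fold change of FPKM + 0.5, PS-MP over water, for each scavenger (points) with its 95% interval from limma-trend (bars). The grey band runs from the lower to the upper quartile of all tested genes (-0.09 to 0.13), and every interval crosses 0 and stays inside the dotted lines of a 2-fold change.

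The spread between libraries of a group was above counting error for all 10 members. It was 4.24% of the level for Cat, 4.60% for Prdx1 and Prdx3, 5.26% for Sod1, 5.95% for Sod2, 6.13% for Gpx4 and Prdx6, 8.39% for Prdx5, 9.87% for Gpx1 and 10.1% for Sod3. Water replicate 1 held the highest value for 5 of the 10 members, where 17.6% of all tested genes were highest in that library, and water replicate 3 held the lowest for 4, where 15.5% of all tested genes were lowest. The whole set took 0.568%, 0.594% and 0.579% of reads in PS-MP replicates 1, 2 and 3, against 0.651%, 0.618% and 0.574% in water replicates 1, 2 and 3. Water replicate 3 thus lay among the PS-MP values and the groups overlapped.

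**Figure D4:**
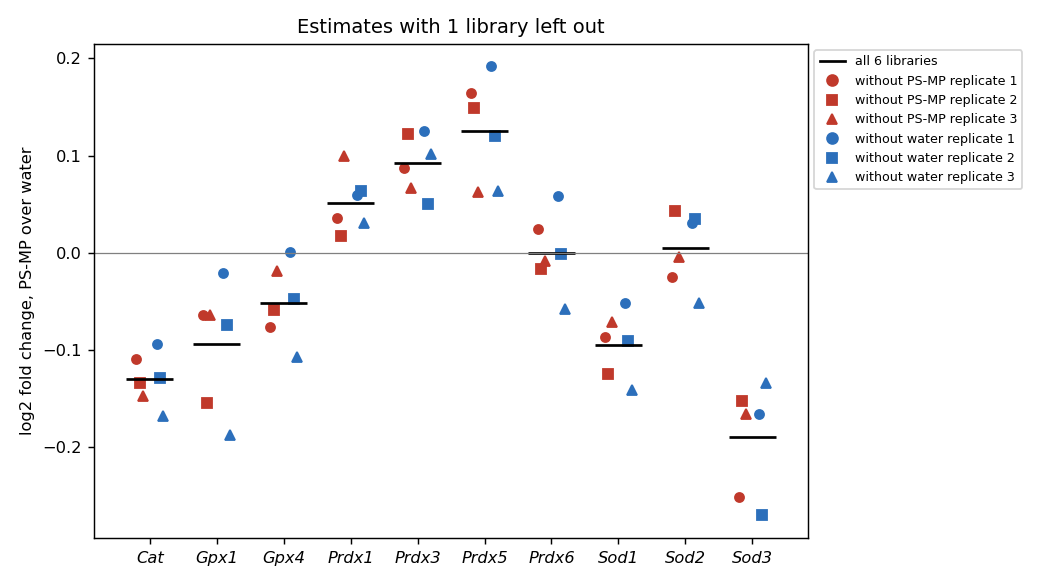
Log2 fold change of each scavenger, PS-MP over water, with all 6 libraries (black lines) and with 1 library left out (points, coloured by the group of that library and shaped by its replicate). Cat stays between -0.17 and -0.09 and Prdx3 between 0.05 and 0.12, whereas Sod2, Prdx6 and Gpx4 lie on both sides of 0.

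The 2 promoters that hold the core of the antioxidant response element, the site bound by the stress factor NRF2, belong to Prdx1 and Sod1. The core was searched as TGACNNNGC on both strands in RefSeq promoters of GRCm38.p6, which run over 300 bases and of which 11 belong to 8 of the members. It was present in 12.4% of all 32851 promoters, so 2 of 11 is a description and not a sign of binding. The stretches are shown because Prdx1 is a textbook NRF2 target, and capitals mark the core. It lies 133 to 125 bases before the RefSeq start of Prdx1 (chr4:116685406-116685534, plus strand) and 56 to 48 bases before that of Sod1 (chr16:90220646-90220761, plus strand). These RefSeq starts are not the same as the GENCODE M21 gene starts given above.
Prdx1: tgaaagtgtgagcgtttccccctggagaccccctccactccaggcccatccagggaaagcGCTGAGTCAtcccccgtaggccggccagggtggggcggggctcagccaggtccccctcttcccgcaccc
Sod1: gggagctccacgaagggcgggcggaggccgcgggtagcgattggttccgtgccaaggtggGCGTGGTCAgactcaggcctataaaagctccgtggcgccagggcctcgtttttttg
As given above, the log2 fold change was 0.05 for Prdx1 and -0.09 for Sod1, and neither passed the test. Nfe2l2, which encodes NRF2, had a log2 fold change of -0.02 (limma adjusted p = 0.947).

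The genes around the scavengers likewise gave no call. Across 9 lists (100 symbols, of which 99 matched 1 gene model and 91 were tested), 0 passed limma-trend, 9 had an unadjusted p under 0.05 (9.89%, beside 13.1% of all tested genes) and limma-voom called 1, Ppargc1b. Groups did not overlap for 16 of them, or 17.6%, beside 19.2% of all tested genes. The nearest relatives not among the members, 5 of 8 tested, all had negative estimates. These included Prdx2 of the cytosol at 16.6 ± 0.687 FPKM in PS-MP and 17.0 ± 0.982 in water, Prdx4 of the endoplasmic reticulum at 21.2 ± 1.39 and 22.1 ± 2.17, and secreted Gpx3 at 3.11 ± 1.25 and 5.06 ± 1.85 (SD, n = 3 each). Gpx3 had a log2 fold change of -0.63 (standard error 0.33; limma adjusted p = 0.471). Gpx6, with only 3 to 19 reads per library, had -0.22 (standard error 0.33; limma adjusted p = 0.816). Prdx4, Prdx2 and Gpx7 were near 0, at -0.06, -0.03 and -0.02 log2.

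In the list of thioredoxin, glutaredoxin and glutathione reductants, 15 genes were tested and 11 had negative estimates, with a median log2 fold change of -0.06. Beside reductants this list holds Srxn1, Txnip and the sestrins, which gave its lowest estimates and also its highest, that of Sesn2. Srxn1, sulfiredoxin, which repairs overoxidised peroxiredoxins, had 17.9 ± 2.14 FPKM in PS-MP and 23.9 ± 2.75 in water (SD, n = 3 each), without overlap. Its log2 fold change was -0.41 and its limma adjusted p was 0.187. The sestrins, stress-induced regulators of nutrient signalling, were split in sign, with Sesn2 at 0.27, Sesn3 at -0.21 and Sesn1 at -0.25 log2. Of the 8 tested NADPH-producing genes, 4 had positive and 4 negative estimates, led by the folate enzyme Aldh1l1 at 0.31 and malic enzyme Me1 at -0.20 log2, followed by Idh1 and G6pdx at -0.07 each.

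The oxidases that generate peroxide or superoxide had a median log2 fold change of 0.04 over 18 tested genes, 11 of them positive. Xdh, which makes urate and releases superoxide or peroxide as an oxidase, had 20.4, 17.7 and 19.6 FPKM in PS-MP, against 13.7, 15.1 and 14.96 FPKM in water. All 3 PS-MP values lay above water, yet the log2 fold change of 0.39 (standard error 0.08) had a limma adjusted p of 0.106. Paox, a polyamine oxidase, and Acox2, an oxidase of bile acid precursors in peroxisomes, were at 0.31 and 0.13 log2, with limma adjusted p of 0.297 and 0.465. The 7 negative estimates included Hao1 at -0.13, Ddo at -0.12 and Qsox1 at -0.11 log2.

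The genes that make selenoproteins had a median log2 fold change of -0.05 (9 tested, 4 positive), and the other selenoproteins 0.02 (11 tested, 7 positive). Sephs2, which makes the selenium donor for the TGA codons shown above, was at 304 ± 29.6 FPKM in PS-MP and 262 ± 15.2 in water (SD, n = 3 each; log2 fold change 0.21, limma adjusted p = 0.383). Secisbp2l was at 0.15 log2, the selenocysteine elongation factor Eefsec at -0.18 and selenocysteine lyase Scly at -0.10. Selenot, Selenoh, Selenoi and Dio1 had the smallest p among the other selenoproteins, with estimates of -0.15 to 0.20 log2. For copper delivery, 4 of 9 estimates were positive, with Atp7b at -0.16, Commd1 at 0.23, Atox1 at -0.11 and Ccs, the chaperone that loads copper into Sod1, at 0.08 log2. For import of catalase into peroxisomes 1 of 6 was positive, with Pex5, the receptor of catalase, at -0.17, Pex14 at -0.16 and Pex13 at -0.02 log2.

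Among the regulators of scavenger genes was the gene with the smallest p of the 9 lists. Ppargc1b, a coactivator of mitochondrial genes, had 3.45, 3.22 and 4.27 FPKM in PS-MP against 1.91, 1.77 and 2.24 FPKM in water, and every PS-MP value lay above every water value. Its log2 fold change was 0.74 (standard error 0.13), with a limma-trend adjusted p of 0.0643. Ppargc1a, its relative, had 0.79, the receptor Esrra that both coactivate 0.47, and the haem-sensing repressor Bach1 0.34 log2, with limma adjusted p of 0.184, 0.152 and 0.184. Only 4 of the 10 members had positive estimates, namely Sod2, Prdx1, Prdx3 and Prdx5 at 0.0046, 0.05, 0.09 and 0.13 log2. The others were negative, among them Cat, Sod1 and Gpx1 at -0.13, -0.09 and -0.09 log2. A link between the members and Ppargc1a was not tested. Over the 10 regulators tested, 7 estimates were positive, beside 53.7% of all tested genes, and the median was 0.11 log2, beside 0.01. An unadjusted p under 0.05 was found for 4 of the 10, beside 13.1% of all tested genes, and 0 were called by limma-trend, so nothing particular to the regulators is read from these counts.

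**Figure D5:**
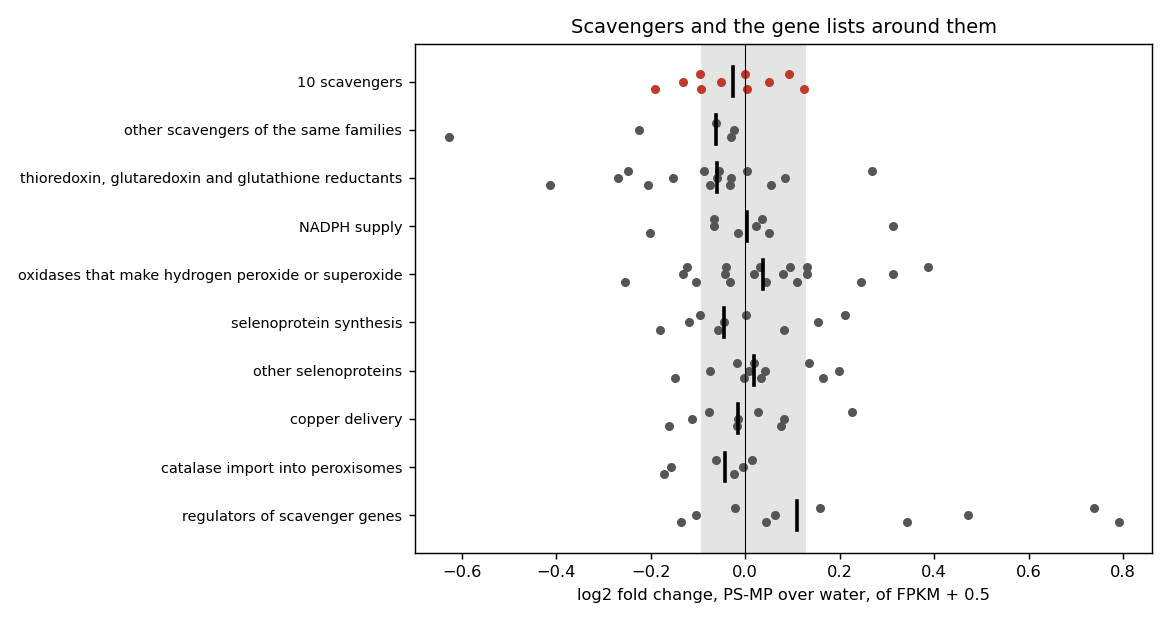
Log2 fold change of FPKM + 0.5, PS-MP over water, of the 10 scavengers (red) and of the tested genes of the 9 lists around them (grey), with each list's median as a black bar and the quartile range of all tested genes as a grey band. The scavengers lie between -0.19 and 0.13, and the points farthest to the right are the regulators Ppargc1a and Ppargc1b.

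Few reads were assigned to near-identical copies of the members. At 90% identity or more over at least 300 bases of the principal transcript, Prdx1 had 3 copies elsewhere in the annotation, Gpx4 had 2, and Sod1 and Prdx6 had 1 each, while the other 6 had 0. The copies of Prdx1, Gpx4 and Sod1 are pseudogenes, the copy of Prdx6 had 0 reads, and the reads of all copies came to at most 0.272% of those of the parent gene, the case of Gpx4. Reads that map equally well to a gene and its copy may have been left out of both. Their number is not known, so the levels of these 4 genes are uncertain.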

How the data were processed

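Liver RNA of 3 PS-MP and 3 water libraries was analysed, grouped by the labels. The authors deposited FPKM per gene. The submitters' processing notes name Trimmomatic 0.38, HISAT2 2.1.0, featureCounts 1.6.0 and DESeq2 1.22.1, and also the human build GRCh38, although all 55536 identifiers are those of mouse GENCODE M21 on GRCm38. The sources used here do not give the strand setting.

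Each FPKM times merged exon length, over the value of 1 read in that library, was whole within 0.001 reads for 100% of values, which gave reads and depth. A gene entered the test at 10 reads or more per median-sized library (0.66 CPM), reached in 3 libraries, and 15 reads in all, which left 13299. Limma-trend (limma 3.58.1, R 4.3.3) was run on log2(FPKM + 0.5), with group as the only term and Benjamini-Hochberg adjustment over all tested genes, threshold 0.05. Fold changes on that scale understate those of low genes. The procedure was tested on simulated data. Within groups no libraries were identical, with a chi-square of 9.99 to 28.3 per degree of freedom.

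The members and lists were chosen with earlier results of these data known. All members are named, with up to 4 genes of smallest p per list and the 3 genes most like the member of smallest p; others named were chosen after their values were seen. A few genes that meet this rule are not reported here. Nnt was left out because its symbol matches 2 gene models. Alternatives were scaling, pseudocount, filter, model, replicate block and leaving out libraries.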

Additional observations from a re-analysis of the deposited data

How the results depend on the processing

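None of the 10 scavengers was called in any of 15 alternatives (9 of settings, 6 leaving out a library), and their smallest adjusted p was 0.442. Of 150 refitted estimates, 141 kept their sign. The sign turned for Sod2 with median-of-ratios scaling (-0.011), with the 20 most abundant genes left out (-0.012) and on leaving out libraries (-0.052 to 0.043). It turned for Prdx6 with limma-voom (0.0011) and on leaving out libraries (-0.058 to 0.059), and for Gpx4 without water replicate 1 (0.00083; range from -0.11). These estimates lie near 0. Their median was lowest (-0.08) without water replicate 3 and highest (0.02) without water replicate 1. Over all genes 65 were called, but 131 with limma-voom, 0 with no low-count rule (2064 with an unadjusted p under 0.05), and 0 to 36 with 1 library left out (0 without water replicate 3, 2 without PS-MP replicate 2, 3 without water replicate 1, 13 without PS-MP replicate 3, 31 without water replicate 2 and 36 without PS-MP replicate 1); the cause was not tested. Among the list genes, Ppargc1b alone was called, 1 call with limma-voom and 1 with robust empirical Bayes. The labels do not say whether the numbers shared by replicates pair the libraries. Deviations of same-numbered libraries correlated at -0.04, 0.05 and -0.01, which cannot settle it. A replicate block left 23 calls over all genes and 0 among the scavengers and lists. The highest correlation of any PS-MP library with a water library was 0.07, for PS-MP replicate 3 and water replicate 1. Depth limits Sod3 most, at 172 to 221 reads.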
